A study of Mus musculus with 16 samples.

Results

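The 40 mitotic and G2/M genes described here were chosen by name: they code for proteins that drive cells into mitosis, condense, attach and separate chromosomes, guard that process, or divide the cell and its nuclear envelope. All 40 had an entry in each of the 16 count files, among 52542 gene entries in all, and all 40 were detected. The cells were LSK cells (Lin-Sca1+Kit+) of mouse bone marrow, a sorted fraction of haematopoietic stem cells and multipotent progenitors. They came from C57BL/6J mice of genotype CD45.1/CD45.2 that were lethally irradiated and given an equal mix of 2 kinds of fetal liver cells, control cells marked by CD45.1 and Regnase-1-/-Regnase-3-/- cells marked by CD45.2. Regnase-1 and Regnase-3 are RNases of the same family. LSK cells were sorted 1 per well 4 weeks later and profiled by MARS-seq, a plate method that counts mRNA molecules at their 3' ends with unique molecular identifiers (UMIs).

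The labels put all 16 libraries in 1 group, so every cell described may be of either donor genotype, and all came from irradiated hosts that also hold some cells of their own. The sources used here name neither genotype nor mouse for a library or a well, and no comparison of knockout with control cells was made. Libraries are called LSK libraries 1 to 16 in the order of their accessions. A table of wells gave sequencing batch SB341 for 9 of them (libraries 2 to 10) and SB343 for 6 (libraries 11 to 16), with no entry for library 1. Kept cells are wells of 500 UMIs or more, not listed as empty, with a mitochondrial share under 20%. This left 5157 cells, 295 to 345 per library. Levels are given as CPM, the UMIs of a gene or list per 1000000 UMIs of the cells summed. A molecule is counted once at its 3' end, so CPM was not divided by gene length.

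Entry into mitosis is driven by Cdk1 bound to cyclin A or cyclin B, and by the Polo and Aurora kinases. Chromosomes are then condensed by condensin and topoisomerase II, attached to spindle microtubules at the kinetochore, and held there by the spindle checkpoint until the anaphase-promoting complex (APC/C) with Cdc20 releases them. Transcripts of such genes are low in resting and early G1 cells, build up through S and G2 phase, and fall after division. Their promoters are known for 2 short elements, the cell cycle genes homology region (CHR, TTTGAA) bound by the MuvB core of the DREAM and MYB-MuvB complexes, and CCAAT boxes bound by NF-Y. Most haematopoietic stem cells are resting, while progenitors of the same LSK fraction divide often.

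Stretches of 120 bases that end just before the annotated start are shown for 6 members, written from 5' to 3' on the strand of the gene, with each TTTGAA and CCAAT, or its reverse complement (TTCAAA and ATTGG), in capitals. Ube2c, Cdc20, Kif11 and Cdk1 are shown as members that figure in the results below, Lbr as the member that varied least with the others, and Nusap1 as a member in which neither element was found. The sequences are RefSeq's for GRCm38.p6.
Ube2c (chr2:164769809-164769928, plus strand): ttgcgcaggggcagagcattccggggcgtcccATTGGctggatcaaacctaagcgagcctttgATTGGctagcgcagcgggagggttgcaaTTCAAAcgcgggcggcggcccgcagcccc
Cdc20 (chr4:118437344-118437463, minus strand): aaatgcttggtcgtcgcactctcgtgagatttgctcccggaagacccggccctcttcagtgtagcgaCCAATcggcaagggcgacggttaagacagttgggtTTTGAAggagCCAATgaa
Kif11 (chr19:37376262-37376381, plus strand): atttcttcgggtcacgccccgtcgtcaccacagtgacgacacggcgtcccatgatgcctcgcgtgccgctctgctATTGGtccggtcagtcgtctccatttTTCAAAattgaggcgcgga
Cdk1 (chr10:69352913-69353032, minus strand): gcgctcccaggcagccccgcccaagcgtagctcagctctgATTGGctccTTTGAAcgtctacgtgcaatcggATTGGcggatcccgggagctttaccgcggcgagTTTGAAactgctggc
Lbr (chr1:181842402-181842521, minus strand): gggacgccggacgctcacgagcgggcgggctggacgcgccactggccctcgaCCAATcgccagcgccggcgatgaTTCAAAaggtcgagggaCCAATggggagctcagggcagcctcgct
Nusap1 (chr2:119618178-119618297, plus strand): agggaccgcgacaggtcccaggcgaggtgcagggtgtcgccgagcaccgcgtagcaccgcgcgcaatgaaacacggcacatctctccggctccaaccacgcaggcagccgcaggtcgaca
In these stretches the CHR letters began 29 bases before the start in Ube2c, 18 in Cdc20, 19 in Kif11 and 45 in Lbr, and in Cdk1 both 71 and 15 bases before it.

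Windows from 250 bases before to 50 after the start were found for 36 of the 40 members. CCAAT or its reverse complement lay in 28 of these 36 windows, and TTTGAA or its reverse complement also in 28, or 77.8%. Over the windows of all 27025 genes in the table the shares were 18.1% for TTTGAA and 37.9% for CCAAT, and over 17491 protein-coding genes 16.5% and 39.03%. Both elements stood together in 24 of 36 member windows (66.7%), against 7.12% of all windows. Neither element's letters contain the other's, though the elements can share a base at their ends. In a separate list of 76 other mitotic genes, TTTGAA was in 31 of 59 windows, and in a list of 56 DNA replication and G1/S genes it was in 5 of 45. The E2F letters TTTCGCG, on either strand, were in 1 of 36 member windows (2.78%), in 7 of 45 G1/S windows (15.6%) and in 0.844% of all windows. Birc5, Nuf2, Nusap1 and Tacc3 had neither TTTGAA nor CCAAT within the window. These are matches of letters, with no measurement of binding.

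The 16 libraries held 521435 to 822534 UMIs over all wells, and the median kept cell of a library held 1146 to 1993. Library 2 had the fewest UMIs by both measures. The genes of the sorting antigens were present in every library, with Kit at 128 to 210.2 CPM and Ly6a, which encodes Sca-1, at 133 to 283 CPM. Mature neutrophil and macrophage genes together reached 0 to 15.9 CPM, and the genes of B cells 23.2 to 57.9 CPM, with Ltf, Cd79a, Cd3e, Cd3d, Cdh5 and Lepr at 0 in the kept cells. Genes of T and NK cells stood at 95.8 to 205 CPM, haemoglobin genes at 105 to 374 CPM and genes of endothelial and stromal cells at 30.6 to 138 CPM. Nothing in the sources says which libraries share a mouse, so the p-values below measure the spread between libraries.

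The 40 genes gave 59601 UMIs in kept cells. Abundance was uneven, and Hmgb2, a chromatin protein of the HMG-box family that rises in dividing cells, alone gave 7848 of these UMIs (13.2%). At least 1 Hmgb2 UMI was seen in 50.7% of the 5157 cells (95% Wilson interval 49.4% to 52.1%), against 25.5% for Mki67 (24.3% to 26.7%) and 4.17% for Anln (3.66% to 4.75%). Such intervals cover counting error only, and a cell without a UMI may still hold the transcript.

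The 6 genes of chromosome structure were the most abundant role, with 37.2% of the members' UMIs and a summed level of 1366 to 2646 CPM over libraries. Hmgb2 ran from 468 CPM in library 2 to 912 in library 12, with a median of 763. Top2a, the topoisomerase that untangles sister chromatids, had a median of 468 CPM (318 to 611). Mki67, the coat protein of mitotic chromosomes known as Ki-67, had a median of 273 CPM (166 to 443). The condensin subunit Smc4 had a median of 335 CPM (228 to 391), and its partner Smc2 stood at 136 CPM (82.0 to 221). Smc4 was thus the more abundant of this pair, and the lowest Smc4 library lay just above the highest Smc2 library. Library 2 was lowest for all 5 of these genes.

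Among the cyclins and Cdk1 with its Cks subunits, Cks1b led with a median of 228 CPM (184 to 328). Ccna2, cyclin A2, had a median of 184 CPM (113 to 237), Ccnb2, cyclin B2, 166 CPM (95.9 to 196), and Cdk1, the kinase they activate, 164 CPM (112 to 196). The ranges of these 3 genes overlap almost entirely, so their order is not larger than the spread between libraries. Ccnb1, cyclin B1, was lower than Ccnb2, with a median of 94.6 CPM (55.4 to 144). The 3' end of Ccna2 overlaps Exosc9 on the opposite strand, and the use of strand in the counting is not given, so its level is uncertain.

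Ube2c, the ubiquitin-conjugating enzyme of the APC/C, was the most abundant of the 6 genes of the spindle checkpoint and APC/C, with a median of 231 CPM. It ran from 151 CPM in library 7 to 364 in library 11. Its co-activator partner Cdc20 had a median of 65.3 CPM (40.3 in library 7 to 99.4 in library 14). The 3' end of Cdc20 overlaps Elovl1 on the opposite strand, with the same uncertainty as for Ccna2. Bub3, a checkpoint protein, had a median of 124 CPM (93.8 to 170.4), while Bub1b, Bub1 and Ttk, the checkpoint kinases and pseudokinase, had medians of 64.3, 52.0 and 35.1 CPM.

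Of the 6 centromere, kinetochore and passenger genes, Cenpa, the centromeric histone H3 variant, was highest, with a median of 169 CPM (93.1 to 214). Cenpe, the kinetochore motor CENP-E, had a median of 59.3 CPM (24.0 to 91.3). The spindle and motor genes were led by Tubb4b, a beta-tubulin, at 414 CPM (296 to 511). UMIs were also assigned to its pseudogenes, 359 to Tubb4b-ps1 and 93 to Tubb4b-ps2, so some Tubb4b molecules may be listed elsewhere. Lbr, the lamin B receptor of the inner nuclear membrane, was grouped with cytokinesis and nuclear envelope genes and had a median of 182 CPM (119.98 to 241). Hmmr, a spindle-associated protein, had a median of 61.4 CPM (38.0 to 113).

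The members with the fewest UMIs were Aurka (345), the centrosomal Aurora kinase, Anln (281), the cytokinetic ring protein anillin, and Kif2c (272), a microtubule-depolymerizing kinesin. Anln ranged from 7.74 CPM in library 3, where it had 6 UMIs, to 50.8 in library 5. Kif11, the motor Eg5 that pushes spindle poles apart, had the widest relative range of the 40, from 15.997 CPM in library 2 (8 UMIs) to 135 in library 11 (106 UMIs). That low value stands alone, since the next library was at 65.2 CPM. No member was at 0 in any library.

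**Figure D1:**
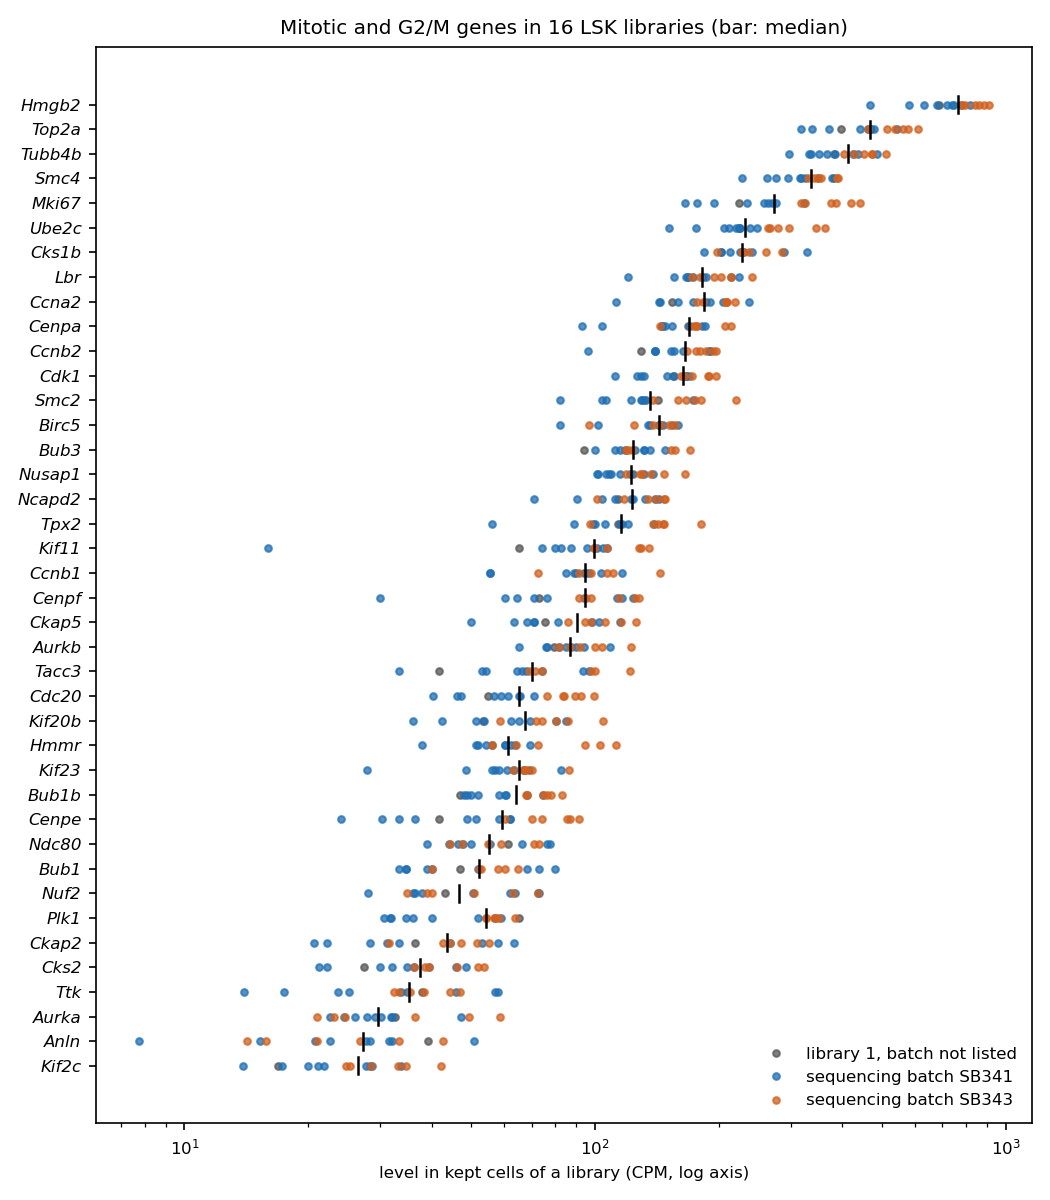
Level of each of the 40 genes in the kept cells of each library (CPM, log axis), ordered by total UMIs, with a bar at the median over 16 libraries and points coloured by sequencing batch. Hmgb2 stands highest with a median of 763 CPM, and the points of SB343 lie towards the right for most genes.

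Low and high values fell in the same few libraries for many members. Of the 40 genes, 18 were lowest in library 2 and 11 in library 7, while 30 were highest in 1 of the 6 libraries of SB343. The same counts were not made over all genes, so they do not set the members apart from other genes. The summed level of the 40 genes had a median of 5663 CPM with an SD of 817 over 16 libraries. In the order of the libraries it was 5214, 3959, 5718, 4825, 5585, 5859, 4457, 5347, 5443, 5609, 7019, 6707, 6059, 6242, 6177 and 6593 CPM. Libraries 11 to 16 hold the 6 highest values. Without Hmgb2 the median was 4978 CPM, with the lowest and highest again in libraries 2 and 11. For each gene, the spread over libraries was set against counting error as a chi-square per degree of freedom, which is near 1 where only counting error is present. It was 1.41 to 15.6 for the members (median 3.15), with Mki67 highest, and had a median of 1.95 over the 6960 genes with 200 UMIs or more. This value also grows with a gene's UMIs and with an uneven spread of UMIs over cells. The members and the other genes were not matched in either, so the medians do not show that members vary more between libraries.

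The level of the list differed between the sequencing batches without overlap. It was 3959 to 5859 CPM in the 9 libraries of SB341 (median 5443) and 6059 to 7019 CPM in the 6 of SB343 (median 6418). After each cell of 1000 or more UMIs was thinned at random to 1000 UMIs, which puts cells at equal depth, the ranges were 3696 to 5678 and 5909 to 6208 CPM. The 73 other mitotic genes with an entry overlapped, at 6919 to 8330 CPM in SB341 and 7011 to 8262 CPM in SB343. Most of them lay on the same side as the members, with a log2 fold change above 0 in SB343 for 52 of 73 and a median of 0.13 in the fit given below. The 56 G1/S genes also overlapped, at 5216 to 5886 and 5516 to 6189 CPM. Replication-dependent histone transcripts, which build up in S phase, were at 1776 to 2430 and 2181.7 to 2818 CPM.

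**Figure D2:**
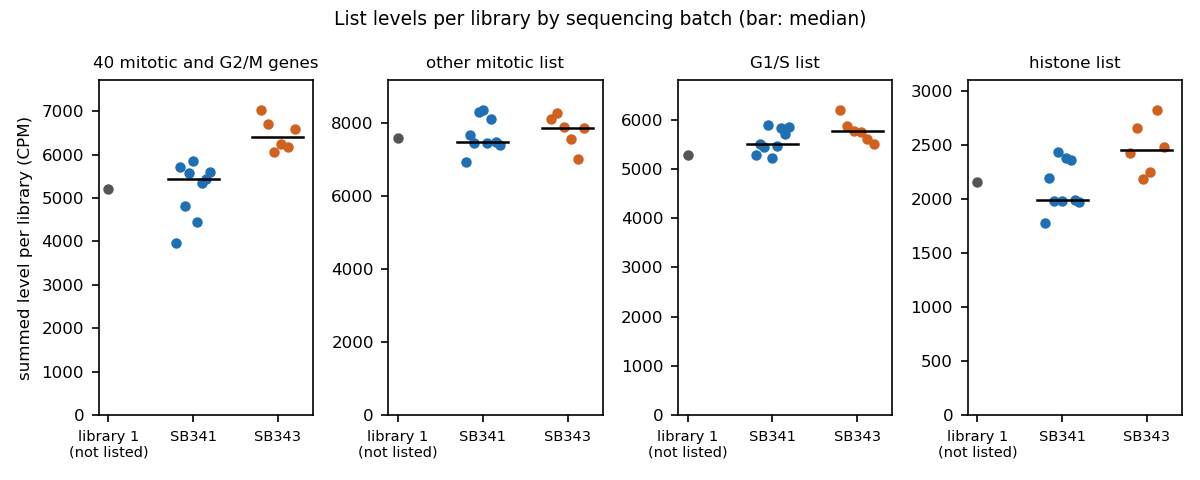
Summed level per library (CPM) of the 40 genes and of the other mitotic, G1/S and histone lists, in library 1 (batch not listed), the 9 libraries of SB341 and the 6 of SB343, with bars at batch medians. The batches are separate for the 40 genes (at most 5859 against at least 6059 CPM) and overlap for the other 3 lists.

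The batches were compared with edgeR's quasi-likelihood test over 13105 genes of 20 UMIs or more, with Benjamini-Hochberg adjustment at 0.05. All 40 members were tested. In SB343, 6 members were higher and 0 lower, where 3.74% of all genes tested were called higher, 6.7% lower and 10.4% in either direction. The log2 fold change was above 0 for 36 of the 40, with a median of 0.24 against 0.01 over all genes. Mki67 was 317.7 to 443 CPM in SB343 and 166 to 323 in SB341, higher by 0.60 ± 0.12 on the log2 scale (SE, edgeR adjusted p = 0.000761), and its ranges overlapped by a few CPM. Cenpe was higher by 0.73 ± 0.17 (edgeR adjusted p = 0.00309), with 60.3 to 91.3 against 24.0 to 61.9 CPM. Both proteins bind mitotic chromosomes, Cenpe at the kinetochore.

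Ube2c and Cdc20, which act together on the APC/C, were the called members whose ranges did not overlap. The share of all genes without overlap was not computed. Ube2c was 263 to 364 CPM in SB343 and 151 to 248 in SB341, a log2 fold change of 0.47 ± 0.11 (edgeR adjusted p = 0.00377). Cdc20 was 76.3 to 99.4 against 40.3 to 71.0 CPM, a log2 fold change of 0.57 ± 0.14 (edgeR adjusted p = 0.00377). Smc2 (0.43 ± 0.13, adjusted p = 0.0243) and Hmmr (0.50 ± 0.16, adjusted p = 0.0378) were also called, with overlapping ranges. A further 9 members had an unadjusted p under 0.05 without being called, among them Top2a and Hmgb2. All 15 of the 40 members with such a p were higher in SB343. Over all genes, 2795 of 13105 had such a p, 1260 higher and 1535 lower in SB343.

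Fewer members were called in some other settings. In thinned cells, which leave out cells under 1000 UMIs, 2 of 40 members were called, Cdc20 and Hmgb2, both higher. Over all genes in that setting, 827 of 10857 were called in either direction. The thinned log2 fold changes of Mki67 and Ube2c were 0.44 (edgeR adjusted p = 0.0565) and 0.43 (edgeR adjusted p = 0.0535). Without library 2, 5 of 40 members and 1268 of 12988 genes were called, and Hmmr had an edgeR adjusted p of 0.0659. Hmmr was also not called with DESeq2 (adjusted p = 0.0541) or at a minimum of 1000 UMIs per cell (0.0664), with log2 fold changes of 0.48 and 0.45. The share of kept cells in the granule gate defined below was 5.71% to 17.3% in SB341 and 17.0% to 28.7% in SB343. That of the lymphoid gate was 7.69% to 18.4% and 4.99% to 7.81%. Within SB341, libraries 9 and 10 had the highest granule shares (17.3% and 15.98%), with library 7 next at 12.2%. They also had the lowest lymphoid shares (8.96% and 7.69%), with library 3 next at 12.1%. These shares thus did not move with the batch alone. Each gate leaves out cells with 2 UMIs or more of another gate's list, so these are not the shares of all cells that held such genes. For the same reason the 2 shares are not independent of each other. The part of these shares in the batch difference was not tested. The batch is a technical label, and the sources used here do not say what else differed between its libraries. A difference that follows the batch exactly cannot be told apart from it. Not all did: Nfkbiz, which is not a member, was at 40.8 and 52.0 CPM in libraries 9 and 10 of SB341. It was at most 6.00 CPM in libraries 2 to 8, and 19.0 to 45.9 CPM in SB343. The list stood at 5443 and 5609 CPM in libraries 9 and 10, within the range of SB341. The part of that split in the list level was not tested.

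In the other lists, 5 of 73 other mitotic genes were higher and 2 lower in SB343, 1 of 56 G1/S genes was higher and 1 lower, and 1 of 15 cell cycle brakes was higher. Those with the smallest adjusted p were the histone variant H2afz (log2 fold change -0.76), the tubulin-binding Stmn1 (-3.56) and Cdca3 (0.46) among mitotic genes, and Pcna (-0.43) and Mcm7 (1.53) among G1/S genes.

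Member UMIs were unevenly spread over cells. The median kept cell had 4 member UMIs, the mean was 11.6 and the highest 215. No member UMI was found in 618 cells (11.98%), and the 516 cells with the most held 46.9% of all member UMIs. At equal depth, after thinning to 1000 UMIs, the 384 cells with the most held 30.4%. The level rose with the UMIs of the cell: it was 3008 CPM in the 1317 cells of 500 UMIs to under 1000, 4000 CPM from there to under 2000, 6034 CPM from there to under 4000 and 8030 CPM in the 478 cells of 4000 or more. Over the same steps the G1/S list went from 4446 to 6161 CPM and the brakes from 660 to 499.6 CPM (brakes being Cdk inhibitors and other genes linked to rest). Cells were therefore thinned to 1000 UMIs, or matched in total UMIs, for what follows. Thinning makes counts per cell comparable, but it does not undo the rise of the level with the total UMIs a cell had held. Of the 3840 cells of 1000 UMIs or more, 447 (11.6%) had no member UMI after thinning, and the highest had 35.

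The 3840 thinned cells were grouped by their member UMIs, with 447 cells at 0, 1107 at 1 to 2, 860 at 3 to 5 and 1426 at 6 or more. The last group was 37.1% of cells, and 24.6% to 49.0% over libraries. Its cells had held more UMIs before thinning, with a median of 2529 against 1558 at 0, while the median mitochondrial share fell from 11.6% to 9.96%. Over these 4 groups the G1/S list was at 4421, 5061, 7284 and 5136 CPM, highest in the cells with 3 to 5 member UMIs. Histone transcripts were at 575, 715, 2003 and 3508 CPM. The other mitotic list went from 3450 to 11210 CPM and the brakes stayed between 493 and 626 CPM. This is a description of cells grouped by their own transcripts, without a test.

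**Figure D3:**
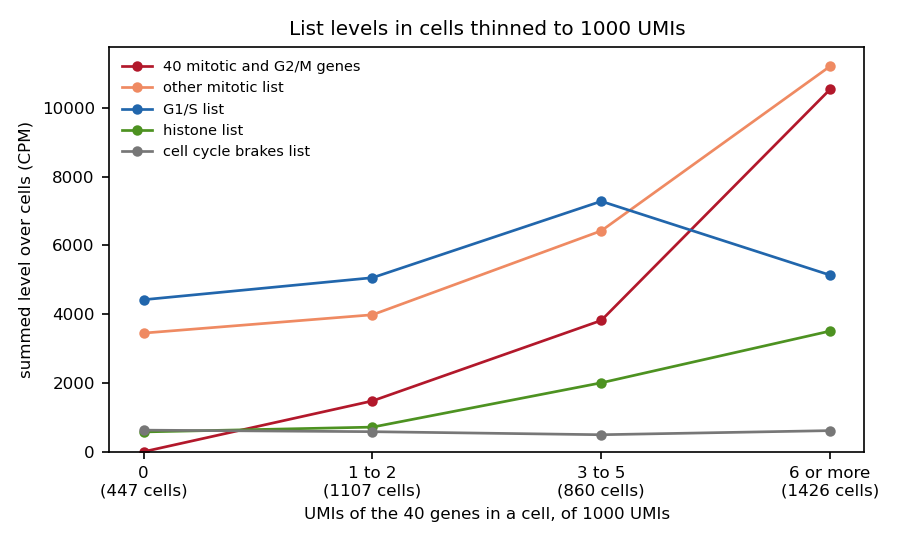
Summed level (CPM) of the 40 genes and 4 other lists in thinned cells grouped by their UMIs of the 40 genes out of 1000. The G1/S list peaks at 7284 CPM in cells with 3 to 5 such UMIs, and the mitotic and histone lists are highest in cells with 6 or more.

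How far each member followed the rest was measured by grouping the thinned cells on the UMIs of the other 39 members, and dividing its level at 6 or more by its level at 0. The median fold was 8.50, and 39 of 40 members had 2-fold or more. Among 5723 other genes of 100 thinned UMIs or more, grouped on all 40, the median was 1.05 and 285 (4.98%) had 2-fold or more. For 6 members the cells at 0 held 3 UMIs or fewer, so their fold is a lower bound computed against 3 UMIs. The level was higher in cells at 6 or more in each of the 16 libraries for 32 members.

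Ube2c had the largest value, 39.8-fold, from 13.2 CPM (6 UMIs in 453 cells) to 527 CPM. It was seen in 1.32% of the cells at 0 and in 34.5% of those at 6 or more. Cenpf, a large kinetochore protein that builds up in G2, was 19.2-fold higher, from 8.87 CPM (4 UMIs in 451 cells) to 170.0 CPM. Hmmr was at least 18.4-fold higher, with 123 CPM in the cells at 6 or more. All 3 were higher in 16 of 16 libraries. Mki67, the usual marker of dividing cells, was 14.2-fold higher. The folds of the 6 members with a lower bound may be larger than given, so the ranks of these members are not settled.

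At the other end, Lbr was 1.63-fold higher (146 to 239 CPM, in 14 of 16 libraries), Bub3 2.39-fold (70.8 to 169 CPM, in 16 of 16) and Smc4 3.05-fold (165 to 504 CPM, in 16 of 16). In cells with no UMI of any other member, Lbr was seen in 12.9% of 513, Bub3 in 6.88% of 480 and Smc4 in 13.04% of 514. Hmgb2 was seen in 17.7% of such cells, with a fold of 6.13. Lbr and Bub3 both hold TTTGAA and CCAAT in their windows. Over the 28 members with TTTGAA the median fold was 8.001, and over the 8 without it 10.3. For CCAAT it was 8.76 over the 28 members with it and 5.50 over the 8 without.

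Other genes followed the members as well. Of the other mitotic list, 46 of the 51 genes with enough UMIs had 2-fold or more, against 9 of 51 in the G1/S list, 10 of 11 histone genes and 1 of 8 brakes. The genes outside the 40 with the highest fold, named by rank, were Ckap2l (17.2), the histone genes Hist1h2ao (16.5) and Hist1h1b (16.4), and Gm44346 (at least 15.05).

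Members were not uniform within the cells rich in them. The 1426 cells of 6 or more member UMIs were split by their G1/S UMIs, as 526 cells with 6 or more and 353 with 0 to 2, a split chosen, like the members named from it, after the values had been seen. Median total UMIs before thinning were alike, at 2469 and 2508. Each library gave 18 to 49 cells of the first kind and 10 to 34 of the second. In the cells low in G1/S transcripts the 40 genes stood at 12003 CPM, against 9015 CPM in those high in them, while histone transcripts were at 2499 against 4072 CPM. Over 4843 other genes with enough UMIs the median ratio of low to high was 0.975.

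The same ratio was above 1 for 30 of 40 members, with a median of 1.34, and 2 or more for 11, against 134 of the 4843 other genes. Plk1, the Polo kinase of mitotic entry and exit, had the largest ratio, 4.81, with 201 against 41.8 CPM (71 and 22 UMIs), and was higher in 15 of 16 libraries. Cenpf (3.58), Cenpa (2.82), Hmmr (2.82), Ube2c (2.73), Cenpe (2.57), Cdc20 (2.56), Ccnb2 (2.55), Kif2c (2.48), Ccnb1 (2.28) and the spindle assembly factor Tpx2 (2.02) followed. Cenpa was higher in 16 of 16 libraries, with 504 against 179 CPM. Kif2c rests on 20 and 12 UMIs and was higher in 9 of 16 libraries. The group holds both B-type cyclins and both members of the APC/C pair, but of the mitotic kinases only Plk1. A ratio below 1 was found for 10 members, among them the kinases Aurka (0.863) and Bub1 (0.911), and Anln (0.828). Aurka rests on 22 and 38 UMIs and was lower in 8 of 16 libraries and higher in 8. Bub1 rests on 33 and 54 UMIs and was lower in 6 of 16 and higher in 10, against its pooled ratio. Anln rests on 15 and 27 UMIs and was lower in 10 of 16.

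The abundant chromosome genes hardly differed, with ratios of 1.04 for Hmgb2, 1.06 for Mki67, 0.951 for Top2a and 1.13 for Smc4. Of the cyclins, Ccna2, which acts from S phase on, had a ratio of 1.34, below both B-type cyclins. Ndc80, the kinetochore's microtubule-binding subunit, was lower in the cells low in G1/S transcripts (ratio 0.684, lower in 14 of 16 libraries), as were Aurkb, the Aurora kinase of the passenger complex (0.769, 13 of 16), and Kif20b (0.796, 12 of 16). Its complex partner Nuf2 had a ratio of 1.43, and Birc5, the Aurkb partner survivin, had 1.09. These ratios come from cells sorted by their own transcripts and carry no test.

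**Figure D4:**
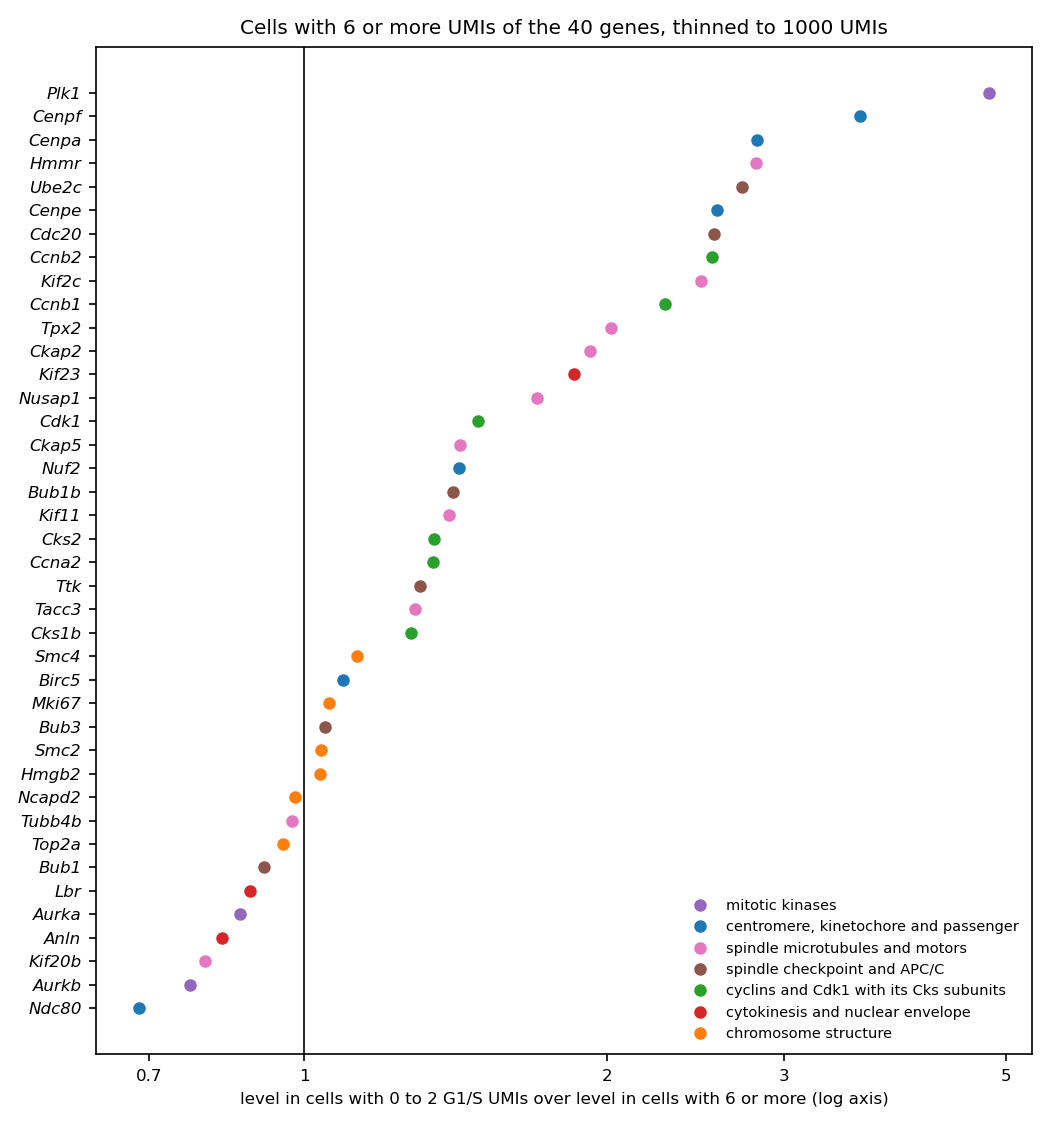
Ratio of each gene's level in cells with 0 to 2 G1/S UMIs to its level in cells with 6 or more (log axis), among cells with 6 or more UMIs of the 40 genes, coloured by role. Plk1 is highest at 4.81, the chromosome structure genes lie near 1, and Ndc80 is lowest at 0.684.

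Cells were then placed in lineage gates by genes that are not members: a gate needed 2 UMIs or more of its list and fewer than 2 of each other list. The lists hold stem cell genes such as Procr and Hlf, neutrophil granule genes such as Mpo and Elane, lymphoid genes such as Dntt and Il7r, megakaryocyte genes such as Pf4 and Itga2b, erythroid genes such as Klf1 and Epor, and monocyte and dendritic genes such as Irf8 and Csf1r. The stem gate held 419 cells, the granule gate 804, the lymphoid gate 532, the megakaryocyte gate 180, the erythroid gate 52 and the monocyte and dendritic gate 54. A further 1125 cells passed several gates and 1991 passed none. The edge of a gate is 1 UMI wide: 251 of the 419 stem-gated cells and 293 of the 804 granule-gated cells had exactly 2 UMIs of their list.

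Before matching, the summed level of the 40 genes was 4928 CPM in the stem gate, with 2631 to 9195 over libraries. It was 5517 CPM in the granule gate (3570 to 6877), 5757 CPM in the lymphoid gate (4252 to 9528), 7216 CPM in the megakaryocyte gate (2694 to 9961) and 6014 CPM in the erythroid gate. Cells that passed several gates had 6851 CPM and those that passed none 4115 CPM, with median totals of 2973 and 1065 UMIs. The monocyte and dendritic gate had the lowest level, 3694 CPM, with 1930 to 4936 CPM over the 3 libraries with at least 5 such cells. Gates thus differ in depth, and the ranges over libraries of the other 5 gates overlap. Placed in gates anew after thinning, stem-gated cells had 4206 CPM, granule-gated 5619, lymphoid-gated 5438, megakaryocyte-gated 6857, erythroid-gated 6115 and monocyte and dendritic-gated 5581 CPM. The share with 6 or more member UMIs was then 27.2% of 228 stem-gated, 51.6% of 126 megakaryocyte-gated, 51.9% of 52 erythroid-gated and 44.2% of 43 monocyte and dendritic-gated cells.

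The batch difference was present inside the gates. The median library of SB343 was above that of SB341 in the stem gate (5740 and 4600 CPM), the granule gate (5875 and 5044), the lymphoid gate (7721 and 5081) and the megakaryocyte gate (8052 and 6534). It was also above in cells of several gates (7463 and 6536) and of none (4320 and 4020). The ranges of the batches overlapped in each of these 6 sets. Each comparison of gates below was therefore made within libraries.

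For each comparison, cells of 2 gates in the same library were paired by total UMIs within 10%, libraries with at least 5 pairs were kept, and UMIs were summed per library and gate. The sums were tested with edgeR's quasi-likelihood test with the library as a block, over all genes of 20 UMIs or more other than gate genes. The comparisons against the stem gate share stem-gated cells and are not independent of each other. Since the list level rises with total UMIs, pairing by total UMIs can also remove a part of a difference in the list between gates. How large that part was, was not tested.

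Lymphoid-gated cells were set against stem-gated cells as 325 pairs in 16 libraries. The list level was 3157 to 8112 CPM in lymphoid-gated and 1556 to 8913 CPM in stem-gated cells, higher in the lymphoid gate in 11 of 16 libraries. edgeR called 0 of 40 members, where 0.825% of 7152 genes were called, and DESeq2 also called 0. At an unadjusted p under 0.05 there were 4 members, 2 higher (Lbr and Hmmr) and 2 lower (Mki67 and Tubb4b). Over all genes, 465 of 7152 had such a p, 237 higher and 228 lower. Mki67 was 187 against 267 CPM, a log2 fold change of -0.58 ± 0.23 (edgeR unadjusted p = 0.0114, adjusted p = 0.457). The median log2 fold change of the members was 0.18, against -0.01 over all genes. Of the brakes, 1 of 8 tested was called: Txnip, a redox and glucose uptake regulator, was lower in lymphoid-gated cells by -1.28 ± 0.31 (edgeR adjusted p = 0.00947).

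Granule-gated cells were set against stem-gated cells as 297 pairs in 16 libraries, with list levels of 2813 to 6013 and 2416 to 9195 CPM. edgeR and DESeq2 each called 0 of 40 members, where edgeR called 0.196% of 7125 genes. At an unadjusted p under 0.05 edgeR had 0 members and 383 of 7125 genes. The median log2 fold change of the members was 0.02, against -0.01 over all genes. For megakaryocyte-gated cells, 112 pairs in 14 libraries were available, and 33 members had enough UMIs to be tested. edgeR called 0 of these 33 members and DESeq2 called 0, where edgeR called 0.135% of 3711 genes. The 1 member at an unadjusted p under 0.05 was Ccna2 (log2 fold change 0.88 ± 0.40, edgeR adjusted p = 0.998), where 161 of 3711 genes had such a p. The erythroid gate gave 19 pairs in 3 libraries and 4 testable members, of which edgeR and DESeq2 each called 0. edgeR called 0% of 410 genes. At an unadjusted p under 0.05 it had 0 members and 27 of 410 genes.

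Among the matched cells the pooled list level was 6156 CPM in megakaryocyte-gated and 6236 CPM in stem-gated cells. Over the 14 libraries the medians were 6281 and 5657 CPM, and the megakaryocyte gate was higher in 7. The matched stem-gated cells had a median total of 1585 UMIs, against 1476 in the whole stem gate, where the list stood at 4928 CPM. In thinned cells, which were not paired, the values were 6857 and 4206 CPM. There edgeR called 0 of the 17 members and 0 of the 1504 genes tested. A result of 0 called members does not show that the gates hold equal levels. For Ube2c, the 95% interval of the log2 fold change was -0.38 to 0.59 for lymphoid against stem and -0.85 to 0.13 for granule against stem.

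**Figure D5:**
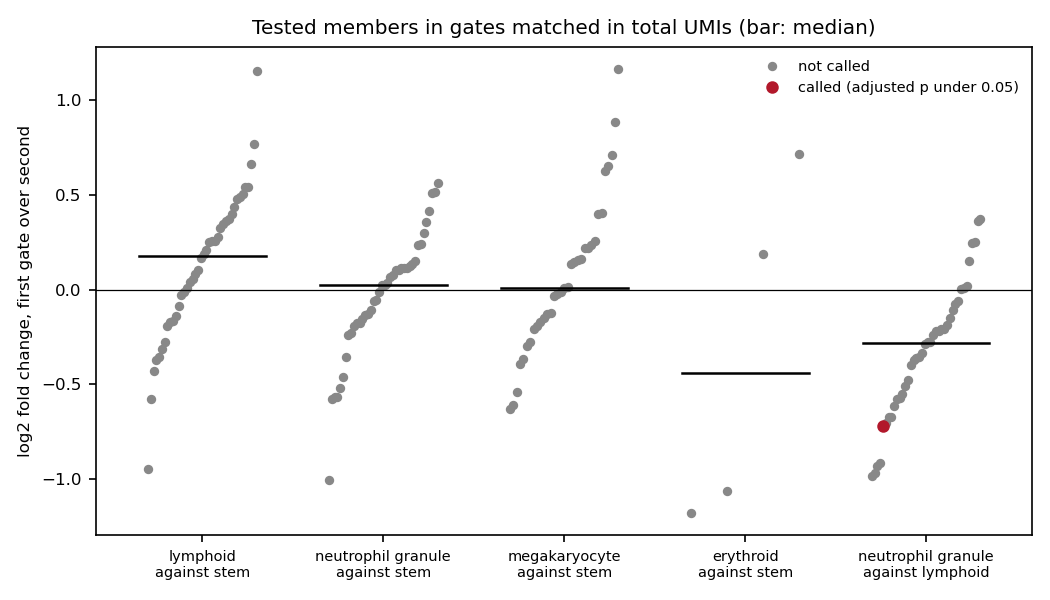
Log2 fold change of each tested member in 5 comparisons of gates matched in total UMIs, with a bar at the median of the members, and called members in red. Points lie around 0 against the stem gate, while 32 of 40 lie at or below 0 in granule-gated against lymphoid-gated cells, where Ube2c is the called member.

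Granule-gated cells were set directly against lymphoid-gated cells as 360 pairs in 16 libraries. The list level was 3518 to 7111 CPM in the granule gate (median 5063) and 3946 to 9528 CPM in the lymphoid gate (median 6062), higher in the granule gate in 3 of 16 libraries. The ranges overlap. edgeR called 1 of 40 members, lower in the granule gate, where 0.448% of 8027 genes were called lower and 0.772% in either direction. The log2 fold change was above 0 for 8 of 40 members, with a median of -0.28 against 0.01 over all genes.

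The called member was Ube2c, at 192.9 CPM in granule-gated and 317 CPM in lymphoid-gated cells (140 and 227 UMIs). Over libraries it ran from 75.4 to 374 CPM in the granule gate and from 105 to 595 CPM in the lymphoid gate, and it was lower in the granule gate in 14 of 16 libraries. The log2 fold change was -0.72 ± 0.18 (edgeR adjusted p = 0.0160). This call was lost with DESeq2 (adjusted p = 0.156), without the library block (0.126), within SB341 (0.639), within SB343 (0.131) and in thinned cells (0.848). The log2 fold change in these settings was -0.76, -0.73, -0.64, -1.01 and -0.47.

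Another 8 members had an unadjusted p under 0.05 without being called, all lower in the granule gate. Over all genes, 545 of 8027 had such a p, 281 of them lower in the granule gate. Among the 8 members were Top2a (-0.36 ± 0.13, edgeR adjusted p = 0.361), Hmgb2 (-0.29 ± 0.10, edgeR adjusted p = 0.276) and Ccnb2 (-0.58 ± 0.24, edgeR adjusted p = 0.542). With gates of 3 UMIs or more, Top2a and Hmgb2 were called as well as Ube2c, where 59 of 6604 genes were called. In thinned cells placed in gates anew the median log2 fold change of the members was 0.08, the same as over all genes there, so the lower level of the list in granule-gated cells was not found in that setting.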

How the data were processed

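UMI counts per gene and well were deposited by the authors without normalization for 16 MARS-seq libraries of 384 wells, with a table of wells. The submitters' processing notes name bcl2fastq 2.15.0.4 and build mm10. Not given in the sources used here are the aligner, the counting tool, the annotation and whether strand was used. Spike-in entries were left out. Cells were filtered as described in the report, thinned to 1000 UMIs with a fixed seed, or paired within a library by total UMIs within 10%. The test of sums per library and gate was that of edgeR 4.0.16 under R 4.3.3 (TMM, quasi-likelihood F test, Benjamini-Hochberg at 0.05), with the library as a block, since both sums of a pair come from the same plate. SEs were taken from the fold change and the F statistic. Gate genes entered the sums but were not tested. The fits were tested on simulated data. Alternatives were DESeq2 1.42.0, other filters, no block, no matching, thinning, a stricter gate, each batch alone, and leaving out library 1 or 2, the last chosen after seeing the data. Members with the 12 highest medians, the 3 fewest UMIs, a call, or the 3 largest and smallest folds were named by rule, and others were chosen after their values were seen. The members, gates and lists were chosen with earlier results of these data known. Promoter windows are RefSeq's (GRCm38.p6), and overlaps of 3' ends come from the GENCODE annotation of GRCm38, a build of the same assembly as mm10. Doublet calling was not run, since wells of 15 libraries were listed with at most 1 cell and library 1, which that table lacks, was treated alike.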

Additional observations from a re-analysis of the deposited data

How the results depend on the processing

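The median level of the 40 genes per library kept to within 1 SD under each of 5 other settings, from 4978 CPM without Hmgb2 to 6384 CPM with a mitochondrial maximum of 10%. For lymphoid against stem gates the count of called members went from 0 to 2 of 40 without matching (Lbr and Ube2c). It went to 2 of 36 in thinned cells (Bub1b and Smc2), and 10 settings kept 0. Over all genes, 164 of 8705 were called without matching and 103 of 5141 in thinned cells. For granule against stem gates the count went from 0 to 4 of 40 without matching (Birc5, Cks1b, Hmgb2 and Lbr). It went to 1 of 38 in thinned cells (Smc2), and 10 settings kept 0. Over all genes, 317 of 9817 were called without matching and 83 of 5697 in thinned cells. All of these called members were higher than in the stem gate. For megakaryocyte and erythroid against stem gates each of 12 and 6 settings gave 0, but with as few as 1 member tested. For granule against lymphoid gates the 1 call became 0 with DESeq2, without the library as replicate block, within SB341, within SB343 and in thinned cells. Over all genes these settings called 11 of 8027, 36 of 8027, 11 of 6306, 0 of 3555 and 22 of 7144, in that order. With gates of 3 UMIs or more it became 3 of 40 (Hmgb2, Top2a and Ube2c), where 59 of 6604 genes were called. Fewer libraries and genes enter the fits within a batch; for the other settings the cause was not tested. Leaving out library 1 or 2 kept that count at 1, with Ube2c at -0.79 and -0.67. For the sequencing batches the 6 calls became 2 in thinned cells, of which 1 was shared, where 827 of 10857 genes were called. They became 5 without library 2 (1268 of 12988 genes called) and with DESeq2 (1292 of 13105 genes called). Ube2c between granule and lymphoid gates and the 6 members called between batches kept their direction in each setting. The median log2 fold change over the members did not: in granule against lymphoid gates it was -0.28 and became 0.08 in thinned cells (0.08 over all genes there), and in granule or megakaryocyte against stem gates it was near 0 and took either sign, down to -0.24 and -0.39 with gates of 3 UMIs or more. Over all genes the median against the stem gate moved to 0.24 without matching and 0.31 in thinned cells for the granule gate, to 0.27 in thinned cells for the lymphoid gate, and to -0.28 without matching for the megakaryocyte gate. The block changed no other count of called members. For the erythroid gate, fits within a batch, with a UMI minimum of 1000 and with gates of 3 UMIs could not be made. Depth limits these tests: genes under 20 UMIs in a fit were not tested, which left 33 members for the megakaryocyte gate and 4 for the erythroid gate.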

Other observations

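The 40 genes and the G1/S list were counted side by side in single cells. Among the 3840 thinned cells, 160 (4.17%) held no member UMI and at most 2 UMIs of the G1/S list, and 526 (13.7%) held 6 or more of both. Of the 860 cells with 3 to 5 member UMIs, 62.0% held 6 or more G1/S UMIs, against 31.1% of the 447 cells with no member UMI and 36.9% of the 1426 cells with 6 or more.

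Some genes were lower in cells rich in members. Among 5723 other genes, the lowest ratios of cells with 6 or more member UMIs to cells with none were those of Tcp11l2 (0.255), BC026585 (0.257), Ung (0.286), Hist1h2bc (0.296) and Ldhb (0.313). Ung, a uracil glycosylase of the G1/S list, went from 51.5 to 14.7 CPM. Hist1h2bc went from 161 to 47.7 CPM (72 UMIs in the cells with none), while 10 of the 11 histone genes had a ratio of 2 or more. Ldhb is a lactate dehydrogenase subunit. These are descriptions without a test.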
